A study of Mus musculus with 2 samples.

Results

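Pattern recognition receptors and the inflammasome machinery were examined in whole-layer back skin of wild type C57BL6/J mice, in 1 library of skin stretched for 5 days from an initial strain of 33%, which the methods raised each day, and 1 library of skin that was not stretched. The methods describe female mice of 8 weeks with back hair in telogen and put a stretching device on the back skin, and they do not say how many animals went into each library. The labels name no transgene and no agent for either group. The members were all gene symbols for Toll-like receptors (Tlr followed by a number) and for Nlrp genes, together with 18 named receptors, adaptors, proteases and effectors. This gave 50 of the 24421 gene symbols in the table of counts. A gene counted as measured when 1 library or both held over 3 of its reads, which left 37 measured members and 13 that were not.

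Toll-like receptors sit in the cell surface or in endosomes and recognise microbial lipids, proteins and nucleic acids, and most of them signal through the adaptor Myd88 to NF-kappaB. NOD receptors, the cGAS-STING pathway and the Mavs pathway watch the cytosol. Inflammasomes are assemblies of a sensor such as Nlrp3, the adaptor Pycard (ASC) and caspase-1, which matures interleukin-1 beta and cleaves gasdermin D, the pore former of pyroptosis. In skin, macrophages and dendritic cells hold many of these receptors, and keratinocytes and fibroblasts hold some.

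Most Toll-like receptors were higher in stretched skin, 9 of 12 with a counting interval above equal levels (18.1% of all measured genes had one), whereas the NOD receptors, Pycard and Casp1 were near equal levels. All 12 Toll-like receptors and both lipopolysaccharide co-receptors had a higher CPM (the count scaled by the library total) in stretched skin, as did 6262 of all 16255 measured genes, and the intervals of Tlr3, Tlr11 and Tlr12 included equal levels. The levels of Tlr1, Tlr13, Tlr9 and Cd14 were between 3.42-fold and 5.60-fold higher. The inflammasome sensor Nlrp3 had the largest ratio of the members with more than 3 counts in both libraries (6.68-fold), and Casp4 and Gsdmd were more than 2-fold higher. Pycard, Casp1, Nod2 and Aim2 were within 1.07-fold of equal levels. Nlrp10, the deepest of the Nlrp genes, was lower.

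Each library had no replicate, so the values compare these libraries and no p-value is given. Total counts were 14152379 for the control library and 11648655 for the stretched library, so that 3 reads equal 0.212 CPM and 0.258 CPM. Ratios of CPM carry the exact 95% Clopper-Pearson interval of the share of counts in stretched skin, which covers counting error only, and reads without molecular identifiers are not independent molecules. The skin markers Krt5, Krt14, Krt1, Krt10 and Lor and the dermal markers Col1a1, Col3a1 and Dcn each had at least 9659 counts in both libraries, and markers of the striated muscle layer were also abundant.

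Of the 37 measured members, 16 had a CPM ratio of at least 2 (43.2%), against 6.32% of all 16255 measured genes. No member had a ratio of 0.5 or less, against 5.47% of all measured genes. The counting interval of the log2 ratio lay wholly above 0 for 21 members (56.8%), against 18.1% of all measured genes, and wholly below 0 for 3 (8.11%), against 33.5%. These shares depend on the number of counts of the genes and on the scaling of the libraries. The median log2 ratio was 0.77 over the measured members and -0.12 over all measured genes. The interval lay wholly past 2-fold for 8 members, Nlrp3, Tlr1, Tlr13, Tlr9, Cd14, Tlr7, Casp4 and Tlr2, and for 2.41% of all measured genes. One of the 16, Tlr12, passed 2-fold with its single control count set to 3, and its interval included 0.

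The methods took FPKM from Cufflinks and kept genes whose values multiplied over both libraries (EV) were above 10. Here FPKM was computed from the counts, as CPM per kilobase of exon, and 1 was added to each value, which the methods do not state. This left 18 members. Of these, 4 were called higher at a fold of 2 or more (22.2%), against 2.61% of the 10911 genes that passed, and none was called lower, against 2.44%. The called members were Tlr2, Cd14, Casp4 and Gsdmd. With nothing added, 13 members were left and 3 were called higher (Tlr2, Cd14 and Gsdmd), against 2.94% of 9684 genes, and Casp4 did not pass the filter. Tlr1, Tlr13, Tlr9 and Nlrp3 had FPKM values too low for this filter.

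**Figure D1:**
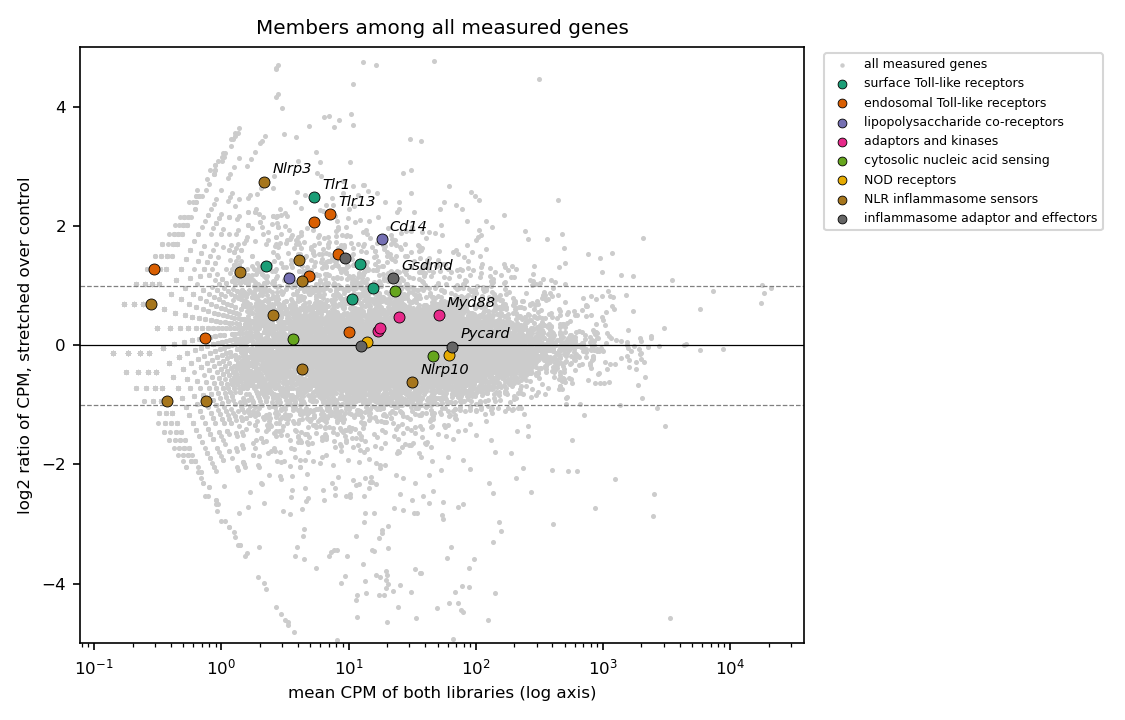
The log2 ratio of CPM of stretched over control skin is plotted against the mean CPM of both libraries on a log axis, with all 16255 measured genes in grey (24 lie beyond the vertical axis), the 37 measured members coloured by role, and dashed lines at a 2-fold difference. The 16 members past the upper dashed line lie mostly at low and middle CPM, and the abundant Pycard and Myd88 lie near 0 or below the line.

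The sequences upstream of the members with the largest ratios are shown, among members with at least 50 counts over both libraries. RefSeq start sites on GRCm38.p6 were found for 39 of the 50 members and for 28 of the 37 measured members. The 250 bases before the most upstream start of Nlrp3, Tlr1, Tlr13 and Tlr9 follow, written 5′ to 3′ on the strand of the gene, and capitals mark any match to the motifs searched. The windows are chr11:59541319-59541568 on the plus strand, chr5:64933559-64933808 on the minus strand, chrX:106143025-106143274 on the plus strand and chr9:106222348-106222597 on the plus strand.
Nlrp3: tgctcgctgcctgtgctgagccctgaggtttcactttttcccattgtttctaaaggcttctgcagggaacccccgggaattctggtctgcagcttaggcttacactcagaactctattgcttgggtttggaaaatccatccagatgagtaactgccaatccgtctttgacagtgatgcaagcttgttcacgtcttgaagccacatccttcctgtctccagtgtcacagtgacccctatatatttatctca
Tlr1: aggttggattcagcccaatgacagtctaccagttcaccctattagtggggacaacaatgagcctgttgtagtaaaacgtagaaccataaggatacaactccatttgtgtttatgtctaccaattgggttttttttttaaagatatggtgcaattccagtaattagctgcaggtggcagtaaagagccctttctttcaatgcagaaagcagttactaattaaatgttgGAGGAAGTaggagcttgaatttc
Tlr13: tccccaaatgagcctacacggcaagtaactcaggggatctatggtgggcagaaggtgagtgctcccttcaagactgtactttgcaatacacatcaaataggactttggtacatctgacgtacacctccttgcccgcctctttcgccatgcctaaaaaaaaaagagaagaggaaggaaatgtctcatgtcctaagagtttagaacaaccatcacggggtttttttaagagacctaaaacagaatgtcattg
Tlr9: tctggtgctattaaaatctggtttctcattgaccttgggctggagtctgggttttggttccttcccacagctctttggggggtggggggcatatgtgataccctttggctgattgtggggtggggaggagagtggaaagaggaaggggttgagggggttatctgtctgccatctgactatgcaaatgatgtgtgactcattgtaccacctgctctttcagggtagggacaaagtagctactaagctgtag

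The motifs searched on both strands of these windows were an interferon-stimulated response element (GAAANNGAA), a gamma-activated site (TTCNNNGAA, its own reverse complement), a site of the myeloid factor PU.1 (GAGGAAGT) and an NF-kappaB site (GGGANTTTC). Of these 4 windows, only that of Tlr1 held a match, to the PU.1 letters, which began 23 bases before the start. Over the 28 measured members with a window, the PU.1 letters were in 6 (21.4%), against 2.42% of the 27025 windows of all genes. The interferon letters were in 4 (14.3% against 7.16%), the gamma-activated letters in 3 (10.7% against 7.14%) and the NF-kappaB letters in 2 (7.14% against 0.981%). Of the 12 members with a ratio of at least 2 and a window, 1 held the PU.1 letters, 1 the interferon letters, 1 the gamma-activated letters and 0 the NF-kappaB letters.

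The 6 members with the PU.1 letters are shown with the bases around the match, which is in capitals, and they were chosen after the match was seen. Nlrp1a and Nlrp1b are related copies with similar bases here, and in Pycard the letters are on the other strand. On GRCm38.p6 the pieces are chr1:173420475-173420514 for Aim2, chr11:71144764-71144803 for Nlrp1a, chr11:71230806-71230845 for Nlrp1b, chr7:127993888-127993927 for Pycard, chr5:64933559-64933597 for Tlr1 and chr14:50357765-50357804 for Tlr11. Each is on the strand of its gene, plus for Aim2 and Tlr11 and minus for the others.
Aim2: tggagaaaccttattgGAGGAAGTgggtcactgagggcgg
Nlrp1a: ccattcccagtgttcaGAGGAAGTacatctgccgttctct
Nlrp1b: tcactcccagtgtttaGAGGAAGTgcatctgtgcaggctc
Pycard: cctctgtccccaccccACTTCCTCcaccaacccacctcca
Tlr1: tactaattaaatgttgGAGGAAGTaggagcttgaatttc
Tlr11: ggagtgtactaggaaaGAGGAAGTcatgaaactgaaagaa

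The log2 CPM ratios of these 6 genes ran from -0.40 for Nlrp1a to 2.49 for Tlr1, and Aim2 (0.10), Pycard (-0.02) and Tlr11 (0.13) were near 0. The members with the PU.1 letters were thus not those with the highest ratios, Tlr1 apart. A match of letters is a description of the window and not of a bound site.

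Receptors of the cell surface recognise bacterial lipids and flagellin. Their summed level was 28.2 CPM in the control library and 63.9 CPM in the stretched library, and all 5 had intervals above 0 (against 18.1% of all measured genes). Tlr1, which pairs with Tlr2 to bind triacylated lipopeptides, had 23 counts in the control library and 106 in the stretched library. Its level was 0.486 FPKM (1.63 CPM) and 2.72 FPKM (9.10 CPM), a log2 ratio of 2.49 (interval 1.82 to 3.20). On mm10 it occupies positions 64924679 to 64933563 of chromosome 5, next to Tlr6 (64952031 to 64960097), and 10.5% of its stretches of 76 bases also occur in other transcripts, mainly of Tlr6. Tlr6, the partner of Tlr2 for diacylated lipopeptides, had 18 and 37 counts (1.27 and 3.18 CPM, 0.341 and 0.852 FPKM), and its ratio of 1.32 (0.47 to 2.22) was measured less precisely.

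Tlr2, their common partner, was the surface receptor with the highest level per length. It had 98 counts in the control library and 207 in the stretched library (6.92 and 17.8 CPM), or 2.30 and 5.90 FPKM, a log2 ratio of 1.36 (1.01 to 1.72). Tlr4, the lipopolysaccharide receptor, had 148 and 237 counts (10.5 and 20.3 CPM, 1.88 and 3.66 FPKM), and its log2 ratio of 0.96 (0.66 to 1.27) was just inside 2-fold. Tlr5, the flagellin receptor, had 112 and 157 counts and the smallest ratio of the surface receptors (0.77, 0.41 to 1.13).

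Lipopolysaccharide is handed to Tlr4 by Cd14 and held by Ly96 (MD-2). Cd14 had 116 counts in the control library and 327 in the stretched library. Its level was 4.73 and 16.2 FPKM (8.20 and 28.1 CPM), a log2 ratio of 1.78 (1.47 to 2.09), which moved it from place 11 to place 3 among the measured members by FPKM. Ly96 had 30 and 54 counts (2.12 and 4.64 CPM, 2.08 and 4.54 FPKM) and a log2 ratio of 1.13 (0.46 to 1.82). The interval of Cd14 lay above the ratio of Tlr4, and that of Ly96 included it.

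Receptors in endosomes recognise nucleic acids, except Tlr11 and Tlr12, which bind profilin. Their summed level was 21.9 CPM in the control library and 51.3 CPM in the stretched library. Tlr13, which recognises bacterial ribosomal RNA, had 36 and 136 counts, or 2.54 and 11.7 CPM (0.591 and 2.71 FPKM). Its CPM ratio was 4.59 (log2 interval 1.66 to 2.77). Tlr9, the receptor for unmethylated CpG DNA on chromosome 9 of mm10 from 106222598 to 106226883, had 29 and 100 counts, or 2.05 and 8.58 CPM (0.589 and 2.47 FPKM), and a log2 ratio of 2.07 (1.46 to 2.72).

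Tlr7 and Tlr8, neighbours on the X chromosome that sense RNA and its breakdown products, were higher by less. Tlr7 had 60 counts in the control library and 143 in the stretched library (4.24 and 12.3 CPM, 1.04 and 3.01 FPKM), a log2 ratio of 1.53 (1.09 to 1.99). Tlr8 had 43 and 79 counts (3.04 and 6.78 CPM, 0.847 and 1.89 FPKM), a log2 ratio of 1.16 (0.60 to 1.73), and the intervals of this pair overlap.

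Tlr3, Tlr11 and Tlr12 had intervals that included 0. Tlr3, which binds viral RNA duplexes, signals through Ticam1 rather than Myd88. It had 131 counts in the control library and 125 in the stretched library, and the interval of its log2 ratio of 0.21 included 0 (-0.15 to 0.58), lying below those of Tlr13, Tlr9, Tlr7 and Tlr8. Tlr11 had 10 and 9 counts (0.13, -1.35 to 1.58), so that a difference was not detectable at this depth. Tlr12 had 1 count in the control library and 6 in the stretched library (0.0707 and 0.515 CPM, 0.0222 and 0.162 FPKM), and its CPM ratio was 2.43 with the control count set to 3. The CPM ratio without that floor was 7.29, resting on 1 control read, with a log2 interval from -0.18 to 8.39.

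The make-up of the receptor set therefore differed between the libraries. Tlr2 had the largest share of the summed FPKM of the 12 Toll-like receptors in both, with 19.6% in the control library and 20.7% in the stretched library. Tlr3 and Tlr5 had 15.1% and 14.1% in control skin but 7.24% and 9.88% in stretched skin. Tlr1 went from 4.14% to 9.55%, and Tlr13 from 5.03% to 9.52%. These shares are descriptions of levels per exon length and carry no test.

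**Figure D2:**
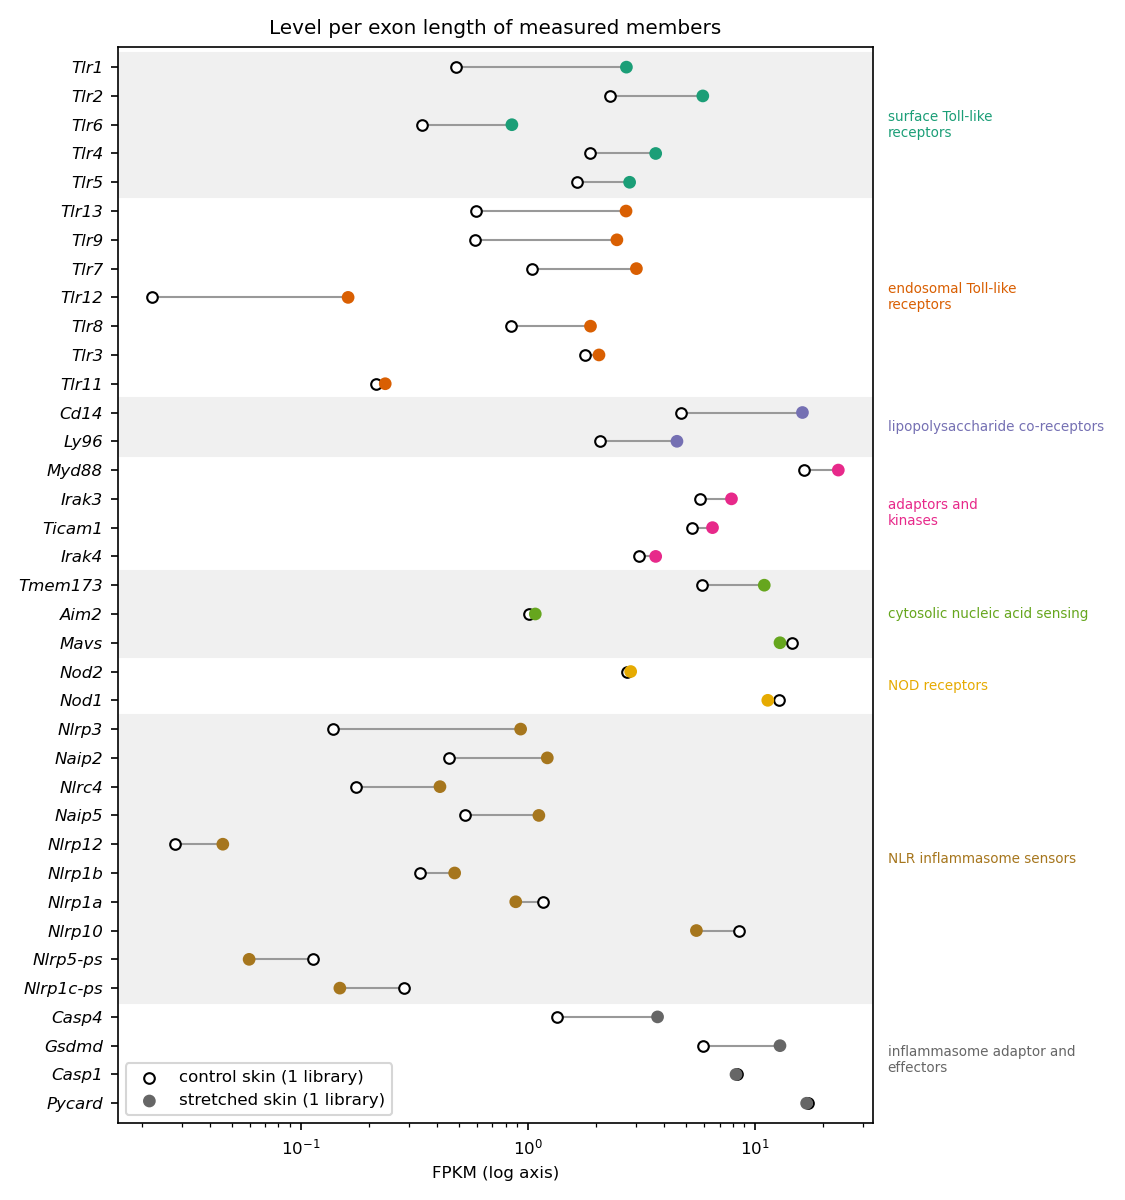
FPKM of the 37 measured members is plotted on a log axis, with open circles for the library of control skin, filled circles for the library of stretched skin and colours for the roles. The filled circles lie to the right for every Toll-like receptor and co-receptor, and the circles nearly coincide for Pycard, Casp1, Nod2 and Aim2.

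Downstream of the receptors, 3 of the 4 adaptors and kinases had intervals above 0 (against 18.1% of all measured genes) and none was past 2-fold (against 6.32%). Myd88, the adaptor shared by most Toll-like receptors and the interleukin-1 receptors, had 598 counts in the control library and 698 in the stretched library (42.3 and 59.9 CPM). Its level per length was the second highest of the measured members in control skin (16.4 FPKM) and the highest in stretched skin (23.3 FPKM), with a log2 ratio of 0.50 (0.34 to 0.66). Without a stated strand setting, its reads cannot be told apart from those of Acaa1a on the other strand, which overlaps 11.3% of its exonic bases.

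Irak3 and Irak4 belong to the same kinase family and act in opposite ways, Irak4 as the first kinase of the Myd88 complex and Irak3 as a brake on it. Irak3 had 297 counts in the control library and 338 in the stretched library (21.0 and 29.0 CPM, 5.71 and 7.89 FPKM), a log2 ratio of 0.47 (0.24 to 0.70). Irak4 had 220 and 214 counts (15.5 and 18.4 CPM, 3.10 and 3.66 FPKM), a log2 ratio of 0.24 with an interval that included 0 (-0.04 to 0.52). Ticam1 (TRIF), the adaptor of Tlr3 and of endosomal Tlr4, had 225 and 227 counts (15.9 and 19.5 CPM, 5.31 and 6.51 FPKM) and a log2 ratio of 0.29 (0.02 to 0.57). The intervals of these 4 genes lay below the log2 ratios of Tlr1, Tlr2, Tlr4, Tlr13 and Tlr9.

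The cytosolic sensing genes split. Tmem173 (STING), which relays signals of cytosolic DNA, had 227 counts in the control library and 350 in the stretched library (16.0 and 30.0 CPM), or 5.85 and 11.0 FPKM, a log2 ratio of 0.91 (0.66 to 1.15). Mavs, the mitochondrial adaptor of the RNA helicase sensors, had 689 and 503 counts (48.7 and 43.2 CPM, 14.6 and 12.9 FPKM) and a log2 ratio of -0.17 (-0.34 to -0.01). This value differed from the median of all measured genes by -0.05, and its interval included 0 under other scalings of the libraries. Aim2, the DNA sensor that builds its own inflammasome, had 50 and 44 counts, and its log2 ratio of 0.10 (-0.52 to 0.71) was not distinguishable from 0.

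The NOD receptors, which recognise fragments of bacterial peptidoglycan, had CPM ratios of 0.895 and 1.03. Nod1 had 918 counts in the control library and 676 in the stretched library (64.9 and 58.0 CPM), or 12.8 and 11.4 FPKM, a log2 ratio of -0.16 (-0.31 to -0.02) that was -0.04 relative to all measured genes. Nod2 had 195 and 166 counts (13.8 and 14.3 CPM, 2.75 and 2.84 FPKM), a log2 ratio of 0.05 (-0.26 to 0.35).

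Among the NLR sensors of inflammasomes, Nlrp3, Nlrc4, Naip2 and Naip5 were past 2-fold and Nlrp10 was lower. Nlrp3, the sensor of potassium efflux and membrane damage on chromosome 11 of mm10 from 59541568 to 59566956, had 8 counts in the control library and 44 in the stretched library. This is 0.565 and 3.78 CPM (0.139 and 0.931 FPKM), a log2 ratio of 2.74 (1.64 to 4.04). It was still among the lower members per length, at place 34 in control skin and place 28 in stretched skin. Naip2 and Naip5 bind parts of bacterial secretion systems and flagellin and hand them to Nlrc4.

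Nlrc4 had 12 counts in the control library and 23 in the stretched library (0.848 and 1.97 CPM, 0.176 and 0.411 FPKM), and its log2 ratio of 1.22 has a wide interval (0.15 to 2.36). Naip2 had 31 and 69 counts (2.19 and 5.92 CPM, 0.452 and 1.22 FPKM), a CPM ratio of 2.70 (1.75 to 4.28). Naip5 had 39 and 68 counts (2.76 and 5.84 CPM, 0.530 and 1.12 FPKM), a log2 ratio of 1.08 (0.49 to 1.69). The Naip genes are near copies of each other on chromosome 13, and 10.4% of the stretches of Naip2 and 23.5% of those of Naip5 occur in other transcripts, so their values are uncertain.

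Nlrp10, an NLR without the leucine-rich repeats of the family that is known from skin, had most of the counts of the Nlrp genes. It fell by 0.62 on the log2 scale (-0.83 to -0.41), from 542 counts to 290, or from 38.3 to 24.9 CPM and from 8.50 to 5.53 FPKM. It was the only member with an interval below 0 under each scaling. With its counts included, the summed level of the NLR sensors was 53.4 CPM in the control library and 50.2 CPM in the stretched library (log2 ratio -0.09, interval -0.25 to 0.07), while the median over the 10 measured genes was 0.60.

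The Nlrp1 genes, sensors of bacterial proteases on chromosome 11, were measured on few counts. Nlrp1a had 69 counts in the control library and 43 in the stretched library (-0.40, -0.99 to 0.17), Nlrp1b had 30 and 35 (0.50, -0.24 to 1.26) and the pseudogene Nlrp1c-ps had 14 and 6 (-0.94, -2.61 to 0.53). Nlrp12 had 3 and 4 counts (0.70, -1.87 to 3.47), and the pseudogene Nlrp5-ps had 7 and 3 (-0.94, -3.52 to 1.19). Every interval of these 5 genes included 0. Of the stretches of Nlrp5-ps, 41.5% occur in other transcripts.

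The 13 members that were not measured are all Nlrp genes. Nlrp2, Nlrp4a, Nlrp4b, Nlrp4c, Nlrp4e, Nlrp4f, Nlrp4g, Nlrp5, Nlrp9a, Nlrp9b, Nlrp9c and Nlrp14 were listed at 0 in both libraries, and Nlrp6 had 1 count in the control library and 0 in the stretched library. A count of 0 allows a level of up to 0.212 CPM in the control library and 0.258 CPM in the stretched library. Several of them, such as Nlrp5 and Nlrp14, are known from oocytes.

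The effectors of the inflammasome also split. Pycard, the adaptor that joins sensors to caspase-1, had 927 counts in the control library and 750 in the stretched library (65.5 and 64.4 CPM, 17.2 and 16.9 FPKM), a log2 ratio of -0.02 (-0.17 to 0.12). Casp1 had 176 and 144 counts (12.4 CPM in both, 8.31 and 8.26 FPKM) and a log2 ratio of -0.01 (-0.34 to 0.32), and both genes turned positive, at up to 0.10, under other scalings. Gm45205 on the opposite strand overlaps 12.8% of the exonic bases of Pycard.

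Casp4 (caspase-11), the receptor and protease for cytosolic lipopolysaccharide, lies next to Casp1 on chromosome 9 of mm10, from 5308828 to 5336783. Its counts were 71 and 161 (5.02 and 13.8 CPM), or 1.35 and 3.73 FPKM, a log2 ratio of 1.46 (1.05 to 1.89). Gsdmd, the substrate of both caspases, had 199 and 357 counts (14.1 and 30.6 CPM), or 5.92 and 12.9 FPKM, a log2 ratio of 1.12 (0.87 to 1.38). The intervals of Casp4 and Gsdmd lay above those of Casp1 and Pycard.

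**Figure D3:**
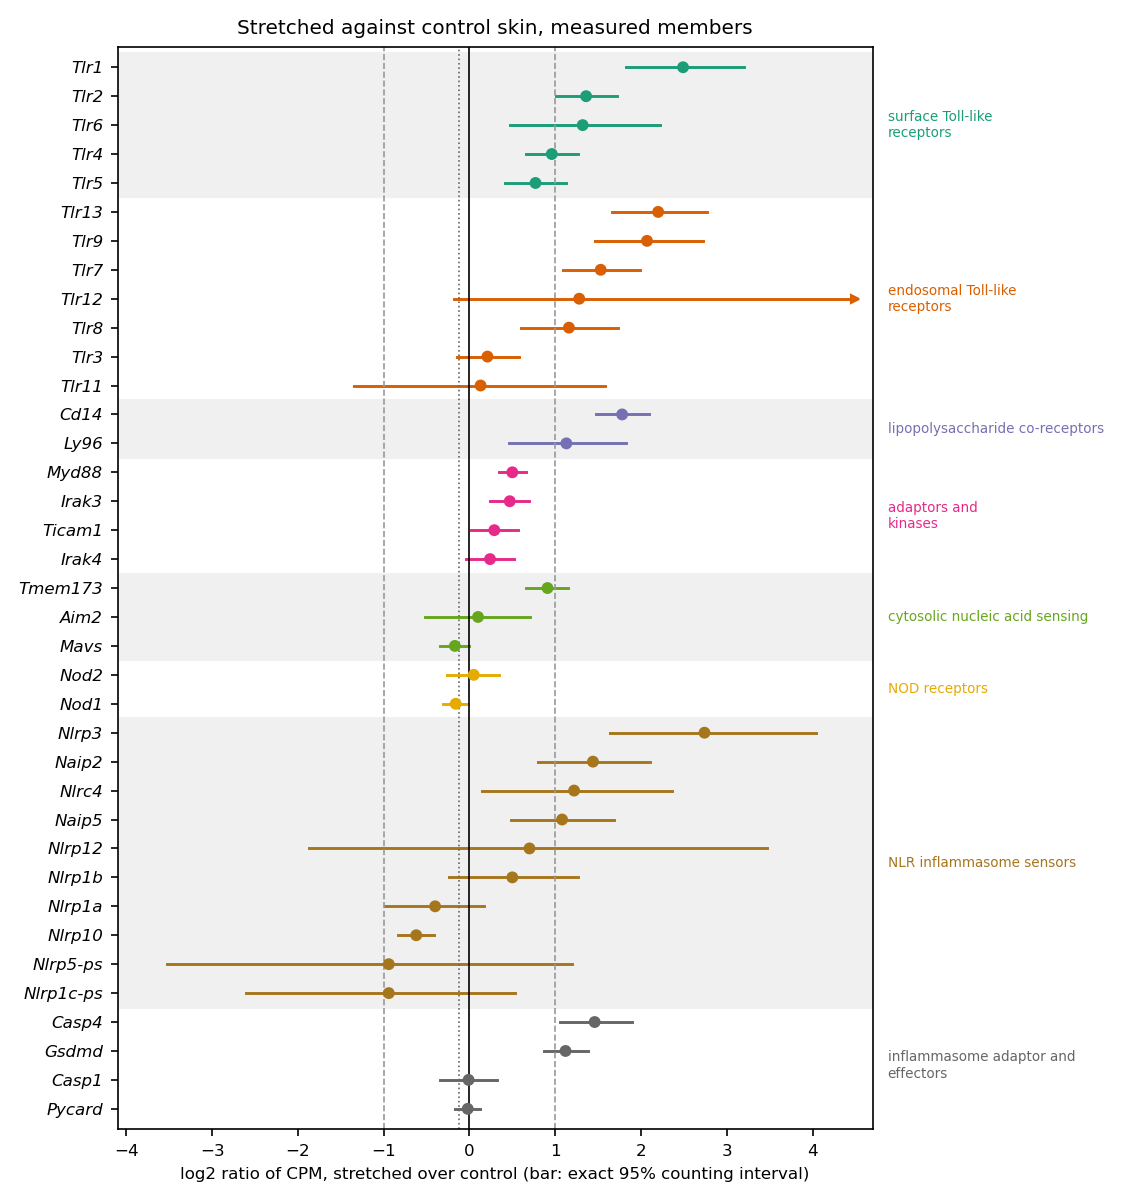
The log2 ratio of CPM of stretched over control skin is shown for each of the 37 measured members by role, with bars for the exact 95% counting interval (an arrow marks an interval beyond the axis), dashed lines at a 2-fold difference and a dotted line at the median of all measured genes (-0.12). The Toll-like receptors and co-receptors lie to the right of 0, Pycard and Casp1 lie at 0, and Nlrp10 lies below it.

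Most measured markers of macrophages and neutrophils were also higher in stretched skin. In whole skin more cells of a type cannot be told apart from more RNA per cell. All 10 macrophage markers (Adgre1, Csf1r, Cd68, Mrc1, Fcgr1, Mertk, Lyz2, Cd163, Aif1 and Itgam) were measured. Their summed level was 696 CPM in the control library and 1612 CPM in the stretched library (log2 ratio 1.21, 1.18 to 1.25), with 9 intervals above 0. The log2 ratios of their genes ran from -0.12 for Mertk to 2.68 for Fcgr1.

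Set beside this summed macrophage level, the intervals of 5 members lay wholly above 1.21, those of Nlrp3, Tlr1, Tlr13, Tlr9 and Cd14 (13.5%, against 1.51% of all measured genes). The intervals of 17 members lay wholly below it (45.9% against 85.7%). Among the macrophage markers themselves, the intervals of Adgre1, Cd68, Fcgr1 and Lyz2 also lay wholly above 1.21. Those of Mertk, Mrc1 and Cd163 lay wholly below it. The sum is weighted by counts, and Lyz2 gave 8471 of its 18777 counts in stretched skin. Set beside the summed neutrophil level given next, no member had an interval wholly above 2.25 (0.258% of all measured genes did) and 30 had one wholly below it (81.1% against 94.3%). The part of macrophage or neutrophil number in the members' ratios was not tested. The summed level of the Toll-like receptors, 50.1 CPM in the control library and 115 CPM in the stretched library, had a log2 ratio of 1.20 (1.07 to 1.33).

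Neutrophil markers were at low levels, with 6 of 9 measured and a summed level of 14.8 CPM in the control library and 70.5 CPM in the stretched library (log2 ratio 2.25, 2.03 to 2.47). S100a8 (57 and 283 counts) and S100a9 (69 and 187) gave most of this sum. Their granule genes Mpo and Elane had 3 counts or fewer in both libraries and Ngp was at 0. Camp had 6 and 3 counts and an interval that included 0, and Ly6g was not among the gene symbols. All 8 dendritic and Langerhans cell markers were measured, with 20.6 and 38.8 CPM (0.91, 0.70 to 1.13). Of their intervals, 4 lay above 0 and 4 included it, among them that of Xcr1 (-0.44). Itgax (47 and 152 counts) gave most of the rise of this sum. The T and natural killer cell markers summed to 7.07 and 13.0 CPM with 5 of 6 measured and Cd8a at 3 counts or fewer. Their sum rose mostly through Cd4 (15 and 56 counts), and the intervals of Cd3e (0.11), Cd3g (0.42) and Klrb1c (0.96) included 0. The B cell markers summed to 0.707 and 1.29 CPM with 2 of 5 measured and Ms4a1 at 0 in both libraries.

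The 8 keratinocyte markers summed to 15488 CPM in the control library and 16178 CPM in the stretched library, mostly from abundant keratins. Of these 8, 4 had intervals above 0 and Trp63 (-0.49), Dsg1a (-0.59) and Ivl (-0.53) had intervals below 0, and the median was 0.01. The summed level of the 5 adipocyte markers fell by 0.68 on the log2 scale (-0.71 to -0.65). The summed level of the 7 skeletal muscle markers fell by 0.59 (-0.60 to -0.59), with a median of -0.25 over genes that ran from -4.57 for Myh4 to 0.85 for Des. The 7 fibroblast markers had a log2 ratio of 0.93 over their sum, which is mostly Col1a1 and Col3a1, and a median of 0.25. The summed endothelial markers had a log2 ratio of 0.38, with 3 of 6 intervals above 0 and that of Kdr (-0.37) below. The summed mast cell markers had one of 0.47, with 5 of 7 intervals above 0 and that of Kit (-0.63) below. None of these shifts was tested as a source of the members' ratios.

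**Figure D4:**
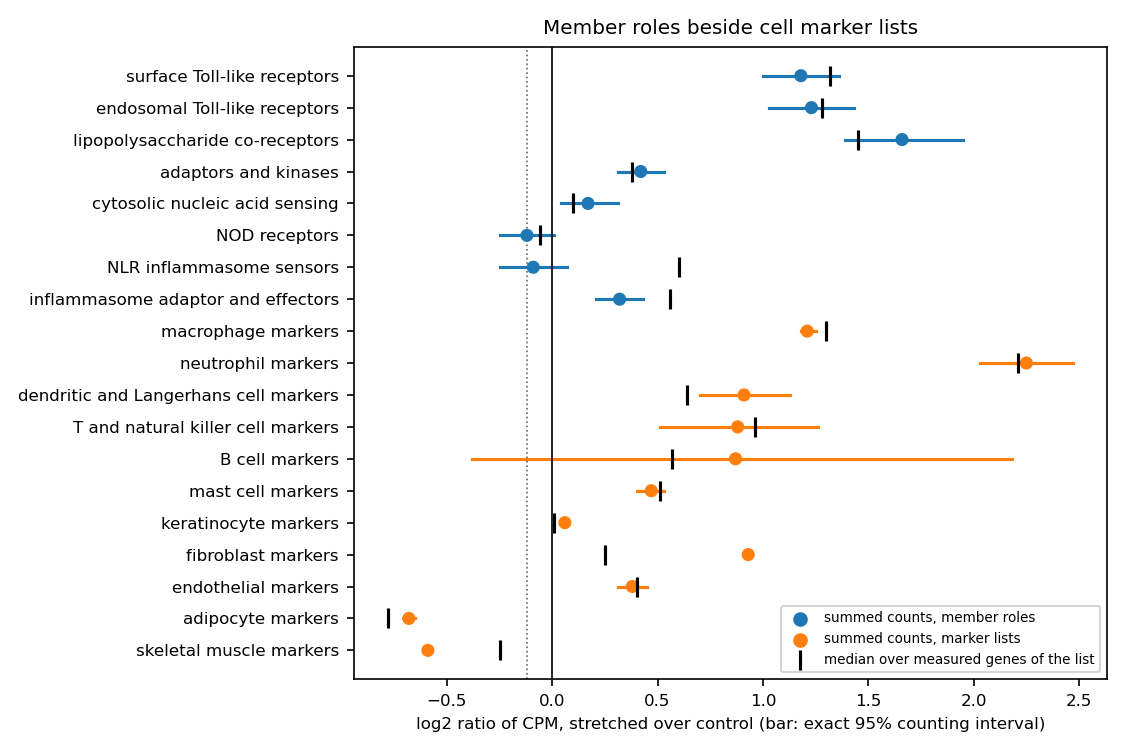
Log2 ratios of the summed CPM of stretched over control skin are shown for the member roles (blue) and for the cell marker lists (orange), with bars for the exact 95% counting interval, black ticks for the median over the measured genes of each list and a dotted line at the median of all measured genes (-0.12). The summed surface (1.18) and endosomal (1.23) Toll-like receptors lie beside the macrophage markers (1.21), and the neutrophil markers lie at 2.25.

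Other genes of these pathways were taken from 6 lists of 71 genes, of which 70 were measured and Naip1 was not. Of these, 14 had a CPM ratio of at least 2 (20% against 6.32% of all measured genes) and 1 had a ratio of 0.5 or less (1.43% against 5.47%). Intervals lay above 0 for 35 (50% against 18.1%) and below 0 for 10 (14.3% against 33.5%), and the median log2 ratio was 0.24 against -0.12. By the median over genes the accessory proteins stood highest (1.32, against 0.64 for the cytosolic sensing genes), whereas by the log2 ratio of summed CPM the cytosolic sensing genes did (0.67 against 0.39).

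Of the 6 receptor chaperones and accessory proteins, 4 were past 2-fold, against 6.32% of all measured genes. Ly86 (MD-1), the partner of the receptor homologue Cd180, had 89 counts in the control library and 326 in the stretched library (log2 ratio 2.15, 1.81 to 2.51), and Cd180 itself had 39 and 76 (1.24, 0.67 to 1.84). Lbp, the serum protein that carries lipopolysaccharide to Cd14, had 626 and 1967 counts (1.93, 1.80 to 2.06). Unc93b1, which escorts the endosomal receptors, had 677 and 1476 counts (1.41, 1.27 to 1.54). The general chaperones of the receptors, Hsp90b1 and Cnpy3, had intervals that included 0.

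None of the 13 genes of Toll-like receptor signalling was past 2-fold, and 4 had intervals above 0 and 4 below (30.8% each, against 18.1% and 33.5% of all measured genes). In the NF-kappaB pathway 1 of 11 genes was, the inhibitor gene Nfkbie, with 57 counts in the control library and 146 in the stretched library (1.64, 1.19 to 2.11). The share of all measured genes past 2-fold was 6.32%. Of the 11 NF-kappaB genes, 6 had intervals above 0 (54.5% against 18.1%) and 2 below (18.2% against 33.5%). Of the 12 genes of cytosolic RNA and DNA sensing, which include the kinases Tbk1 and Ikbke, the ubiquitin ligase Trim25 and the transcription factor Irf3, 10 had intervals above 0 (83.3% against 18.1% of all measured genes). The intervals of Mb21d1 (0.07) and Irf3 (0.04) included 0. The nucleic acid sensor of necroptosis Zbp1 had 81 and 255 counts (1.94, 1.57 to 2.31), the helicase Dhx58 had 60 and 145 (1.55, 1.11 to 2.01) and Ifi204 had 313 and 649 (1.33, 1.14 to 1.53), although 13.1% of the stretches of Ifi204 occur in other transcripts.

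Among the 10 measured NOD and other NLR partners, Nlrc3 (22 and 43 counts, 1.25, 0.47 to 2.06) and Naip6 (14 and 25 counts, 1.12, 0.12 to 2.17) were past 2-fold, against 6.32% of all measured genes. Of the stretches of Naip6, 11.7% occur in other transcripts. Intervals lay above 0 for 4 of the 10 (40% against 18.1%) and below 0 for 1 (10% against 33.5%). The kinase Ripk2, through which both NOD receptors signal, had 162 and 125 counts, and its log2 ratio of -0.09 had an interval that included 0 (-0.44 to 0.25).

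Inflammasomes process the precursors of Il1b and Il18. Il1b had 37 counts in the control library and 179 in the stretched library, a log2 ratio of 2.56 (2.04 to 3.11), close to that of Nlrp3. Il18, which keratinocytes store as a precursor, had 266 and 192 counts (-0.19, -0.46 to 0.08). Il1a, a keratinocyte alarmin that caspase-1 does not need to cleave, fell by 1.07 (-1.57 to -0.59), from 130 counts to 51.

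Il18bp, the decoy that binds interleukin-18, had 38 and 70 counts (1.16, 0.57 to 1.77). Mefv, which encodes the sensor pyrin, had 11 and 40 (2.14, 1.15 to 3.26), and Mlkl, the executor of necroptosis, had 56 and 106 (1.20, 0.72 to 1.70). The other 12 regulators and cytokine genes besides Il18 had log2 ratios between -0.21 and 0.61.

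**Figure D5:**
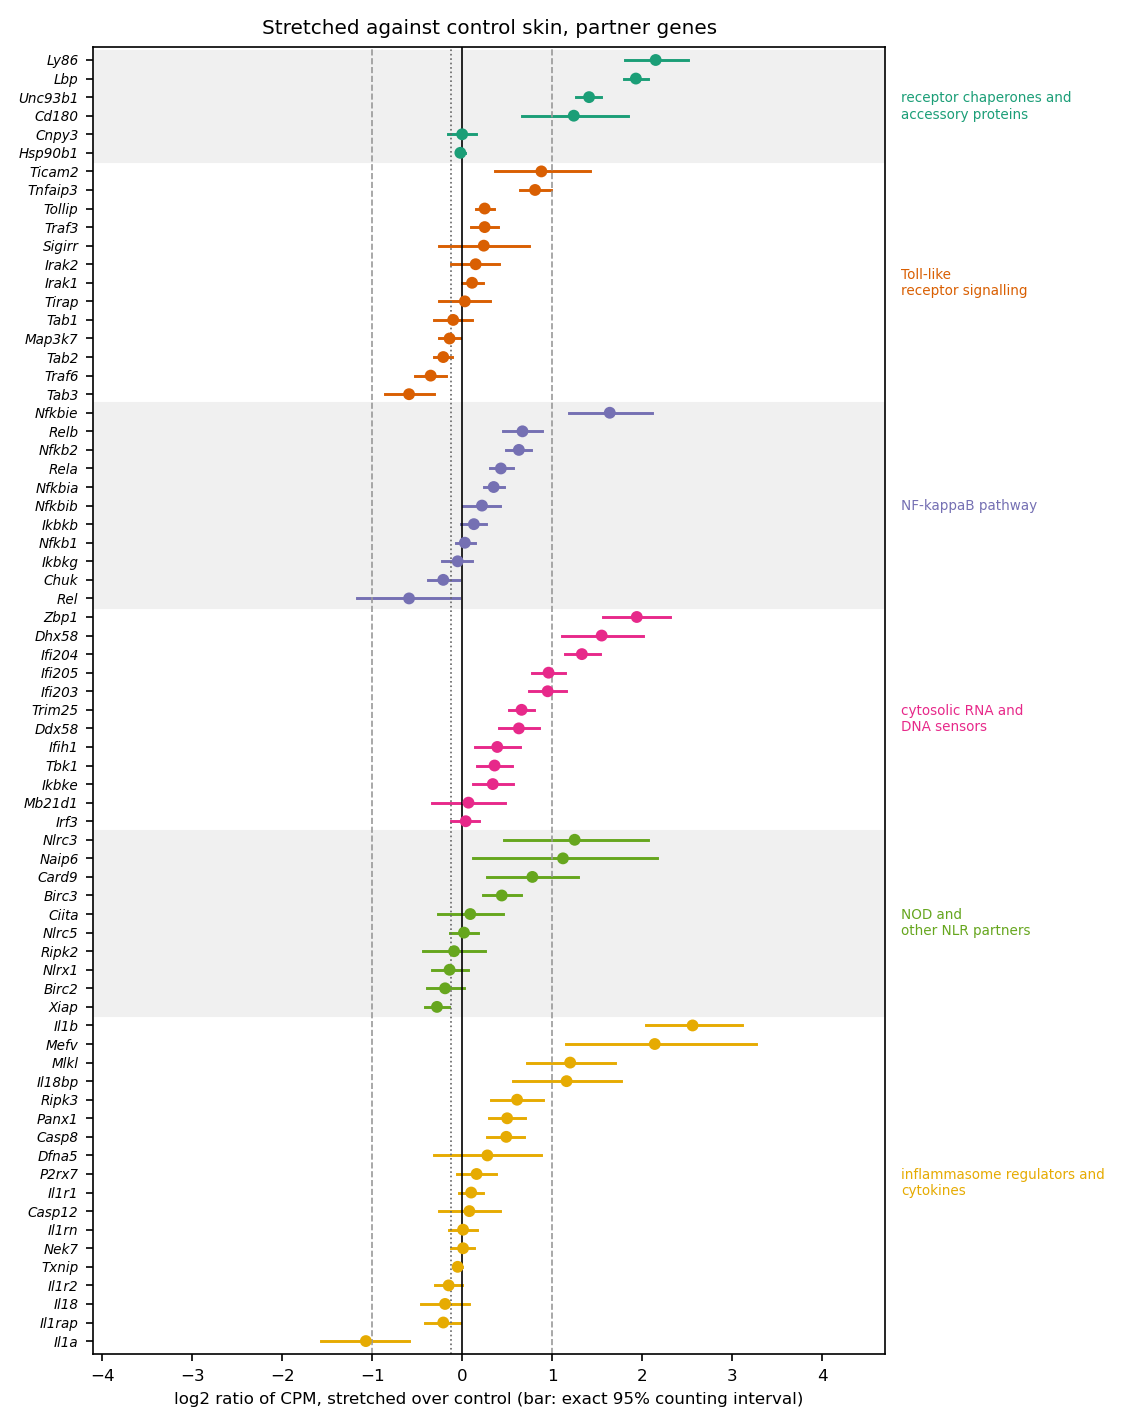
The log2 ratio of CPM of stretched over control skin is shown for the 70 measured partner genes in 6 groups, with bars for the exact 95% counting interval, dashed lines at a 2-fold difference and a dotted line at the median of all measured genes (-0.12). Il1b (2.56), Ly86 (2.15) and Mefv (2.14) lie farthest to the right and Il1a (-1.07) farthest to the left, while the Toll-like receptor signalling genes lie between -0.59 and 0.88.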

How the data were processed

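The authors filtered 76-base reads with the FASTX-Toolkit (version 0.0.13.2), aligned them to mm10 with TopHat2 (version 2.1.0) and deposited raw read counts per gene symbol, which are not normalized. Their own FPKM came from Cufflinks and was not used here. The counting program and its strand setting are not given in the sources used here. From the deposited counts, CPM used the total count of each library, and FPKM used the union of exons in GENCODE M21 (mm10). All 50 members had a length. Symbols were matched to that annotation by name (23376) or synonym (657), and 388 had no length. Counts below 3 were raised to 3 before a CPM ratio was taken, and intervals used the counts as deposited. Shared stretches are the 76-base pieces of a gene's transcripts that also occur in transcripts of other genes. The members and lists were chosen with earlier results of these data known.

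Every measured member is named, with CPM and FPKM for those past 2-fold or with at least 300 counts over both libraries. Partner genes are named when past 2-fold, together with Il1b and Il18, and a few others were named after their values were seen. Replicate tests were not possible with 1 library per condition. The ratio and interval steps were tested on simulated data. Other scalings tried were median of ratios (DESeq2 1.42.0), TMM (edgeR 4.0.16), upper quartile and library totals that leave out the 50 deepest genes. Other filters tried were a minimum of 20 counts, leaving out genes with at least 10% shared stretches, 1 CPM added, and changed EV settings. Promoter windows came from RefSeq on GRCm38.p6. Protein sequences were not used here. Python 3.11.15 and scipy 1.17.1 were used.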

Additional observations from a re-analysis of the deposited data

How the results depend on the processing

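No paired analysis was possible because each condition has a single library, which also means that none could be omitted. Another scaling adds one shift to every log2 ratio, 0.06 for totals that leave out the 50 deepest genes, 0.10 for TMM, and 0.11 for both upper quartile and median of ratios, and the median of all measured genes was then -0.06, -0.02, -0.01 and -0.01. Of 148 values of single members under these scalings, all 148 stayed within the counting interval. They could not do otherwise, because every interval reached further above its ratio than the largest shift. The sign changed for Casp1 and Pycard. The number of members with a ratio of at least 2 was 17 or 18 under the scalings (6.84% to 7.31% of all measured genes), against 16 of 37 (6.32%). It was 15 of 33 with at least 20 counts (4.98%), 10 with 1 CPM added (3.3%) and 8 with an interval wholly past 2-fold (2.41%). Leaving out genes with at least 10% shared stretches gave 13 of 32. That count has no share of all genes, because shared stretches were found only for members and partner genes. The number with an interval above 0 was 22 in place of 21 under each scaling, against 21.6% to 24.7% of all measured genes in place of 18.1%. The number with an interval below 0 was 1 in place of 3 under each scaling. For intervals below 0, the share of all measured genes is given only for total counts (33.5%). Partner genes at a ratio of 0.5 or less went from 1 to 0 with TMM, median of ratios, upper quartile and 1 CPM added, since Il1a lies near the threshold. Members called by the FPKM filter were 3 with nothing added to FPKM (Casp4 was lost, 2.94% of all genes that passed), against 4 (2.61%). They were 7 without the EV filter, 0 with EV above 100 and 9 with CPM in place of FPKM. For these last settings no share of all genes is given, so the counts cannot be set against a background. The rule of an interval past 2-fold, the list without pseudogenes (median 0.91) and the list with more than 3 counts in both libraries (15 past 2-fold, median 0.84) were chosen after seeing the data. No share of all genes is given for the last of these lists.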
